A study of Arabidopsis thaliana with 18 samples.

Results

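The IQD family of Arabidopsis thaliana was examined on 18 arrays from whole plants, as the genes whose annotated symbol is IQD followed by a number. A member needed a probe set (a group of short array probes that the manufacturer reads as a unit) paired with that gene alone and had to reach a signal of 50 on at least 1 array. The rule found 8 genes, IQD21 (AT3G49260), IQD22 (AT4G23060), IQD23 (AT5G62070), IQD24 (AT5G07240), IQD29 (AT2G02790), IQD30 (AT1G18840), IQD31 (AT1G74690) and IQD32 (AT1G19870), among 5689 genes that passed the same conditions. Each was read by 1 probe set. The gene table lists 33 IQD symbols, and 17 of them had a probe set of their own.

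IQD proteins are specific to plants. They carry a conserved region of calmodulin-binding motifs, called the IQ67 domain, through which they bind calmodulin and related calcium sensors. Many members locate to microtubules, the plasma membrane or the nucleus and are regarded as scaffolds that link calcium signals to the cytoskeleton and to cell shape. IQD1, the founding member, is known for promoting glucosinolate accumulation, a defence trait that jasmonate also controls. IQD22 has been reported in Arabidopsis among early transcript targets of the DELLA growth repressors.

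The study crossed 4 genotypes with 2 treatments. The genotypes were the jaz10phyb double mutant, which lacks the jasmonate repressor JAZ10 and carries the phyb-9 allele of the red-light receptor phytochrome B, the jaz10 and phyb (phyb-9) single mutants, and wild-type Col (Col-0). Plants of every group were 4 weeks old, grown in 8 h of light per day at 22 °C, and received a spray of 250 µM MeJA (methyl jasmonate, the methyl ester of the defence hormone jasmonic acid) or a water mock (Control) 3 h before harvest. The phyb groups had 3 arrays each and all other groups 2, and a sample pooled at least 4 plants. The labels do not name the jaz10 allele. They also leave unsaid whether the pools were grown apart, so the p-values cover the spread of the pools as sampled, which may be technical. The design asks whether phytochrome B and JAZ10 alter the transcript response to MeJA.

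Array medians lay between 14.87 and 17.5. The first principal component took 65.2% of the variance and separated the treatments, apart from phyb MeJA 3, which lay among the Control arrays, and phyb Control 2, which lay among the MeJA arrays. No probe set was paired with PHYB or JAZ10, so the genotype labels could not be checked on those genes. Treatment labels were checked on the jasmonate oxidases JOX2, JOX3 and JOX4, which inactivate the hormone and are raised by it. Their mean log2 signal was 6.50 to 8.10 in 8 MeJA arrays, against 4.08 to 5.47 in 8 Control arrays. Against its label, phyb MeJA 3 had 4.24, within the Control range, and phyb Control 2 had 7.15, within the MeJA range. Both are kept under their labels in the fit to all 18 arrays, and the MeJA changes in phyb, the calls and the counts of calls are also given for the 16 arrays without them. Of 16 tissue markers, 3 had a probe set. The shoot gene RCA, which activates Rubisco, had signals of 2827 to 3187 in the 8 MeJA arrays and 2962 to 3508 in the 8 Control arrays. PYK10, an abundant root glucosidase, had 1282 to 1655 in the 8 MeJA arrays and 696 to 989.8 in the 8 Control arrays, with no overlap. Over these 16 arrays 16.2% of all genes tested did not overlap. The root-hair expansin EXPA7 was near 0 throughout, at 4.8 to 6.55 in MeJA arrays and 5.52 to 6.9 in Control arrays. The part of root tissue in the MeJA results below was not tested.

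Signal minima decided which family members could be followed. Of the 17 IQD genes with a probe set of their own, 9 never reached 50 (IQD15, IQD16, IQD18, IQD19, IQD20, IQD25, IQD26, IQD27 and IQD28), with highest signals of 8.25 to 44.1. The nearest below was IQD28, at most 44.1, and the nearest above was IQD24, at most 66.3. IQD33 was read only by probe sets shared with AT5G35680, with signals of 26.4 to 46.1 and 28.9 to 47.9. The remaining 15 IQD genes, IQD1 included, had no probe set paired with them and are not analysed here. IQD21, IQD29, IQD30, IQD31 and IQD32 were at 50 or above in all 18 arrays, IQD23 in 16, and IQD22 and IQD24 in 15. A signal compares arrays for the same gene and does not rank genes, since probes differ in brightness.

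**Figure D1:**
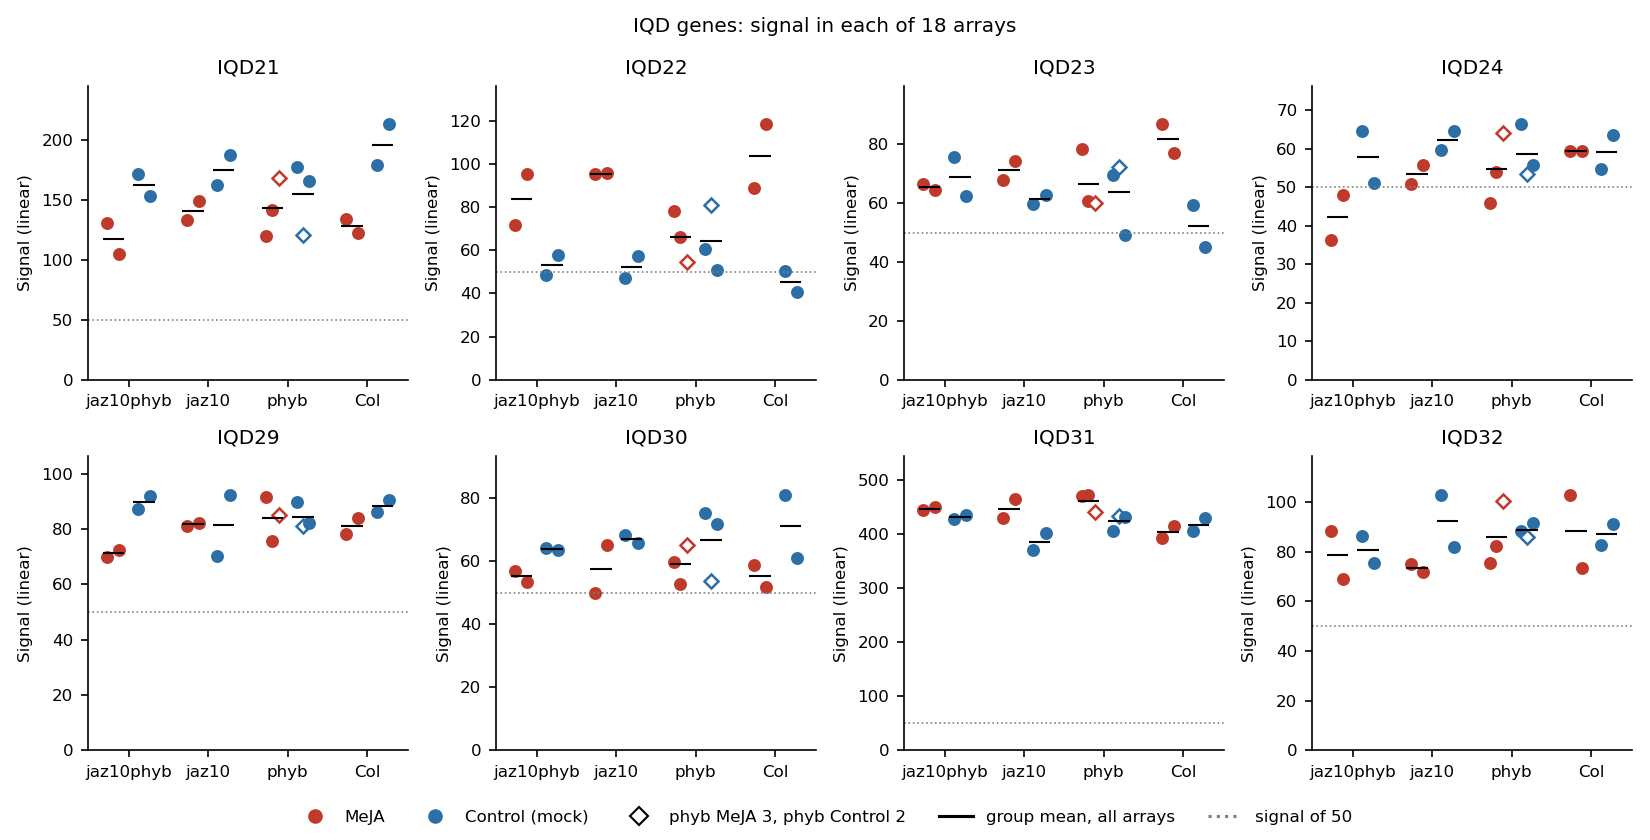
Deposited signal (linear axis from 0) of each IQD gene in every array, by genotype, with MeJA in red left of Control in blue; short bars are group means over all arrays of a group, the dotted line marks the signal of 50, and open diamonds are phyb MeJA 3 and phyb Control 2. IQD22 reached 118 in Col MeJA 2 and 40.5 in Col Control 2, while IQD31 stayed between 371 and 472.

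MeJA raised IQD22 in Col and in jaz10, and no other IQD gene was called in more than 1 genotype with all arrays. In Col it had signals of 88.8 and 118 in the MeJA arrays, against 50.3 and 40.5 in the Control arrays. In jaz10 it had 95.3 and 95.6 in MeJA arrays, against 47.15 and 57.3 in Control arrays. Both MeJA arrays stood above both Control arrays in each genotype. The jaz10phyb plants had 71.7 and 95.3 in MeJA arrays, against 48.6 and 57.9 in Control arrays, again without overlap. In phyb the 3 MeJA arrays read 78.1, 66.3 and 54.4, against 60.75, 80.9 and 50.7 in the 3 Control arrays, which overlapped. The value 54.4 belongs to phyb MeJA 3 and 80.9 to phyb Control 2. In whole plants a change in signal can come from more or fewer cells of a type or from more or less RNA per cell, which cannot be told apart here.

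On the log2(signal + 1) scale, a limma model of the 8 group means gave IQD22 a MeJA change of 1.17 ± 0.23 in Col (SE, here and below, 2.24-fold; adjusted p = 0.0275, Benjamini-Hochberg over the 5689 genes). The change was 0.87 ± 0.23 in jaz10 (1.82-fold; adjusted p = 0.0417). In jaz10phyb the value was 0.63 ± 0.23 (1.55-fold; adjusted p = 0.136), short of the threshold of 0.05. It was 0.06 ± 0.19 in phyb (adjusted p = 0.984, 95% interval -0.35 to 0.46). The difference between genotypes is tested separately below. With the 2 doubtful arrays left out, the changes in Col, jaz10 and jaz10phyb kept their size, had an SE of 0.18 and passed (adjusted p = 0.000336, 0.00329 and 0.0272). The phyb change was then 0.37 ± 0.18 (adjusted p = 0.186). With all arrays as the start, the call in Col was lost in each fit that dropped a Col array (adjusted p = 0.0898 to 0.14), and the call in jaz10 in each fit that dropped phyb MeJA 2 or an array of Col, jaz10 or jaz10phyb (0.053 to 0.251). The Control mean of IQD22 in Col, 45.4 ± 6.97 (SD, n = 2), lies below the signal minimum of 50, and whether it exceeded background was not tested, which leaves the fold there uncertain.

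IQD21 had lower signals after MeJA in 3 genotypes. Col plants had signals of 134 and 122 in MeJA arrays, against 179 and 213 in Control arrays. In jaz10 it had 133 and 149 in MeJA arrays, against 163 and 187 in Control arrays. The jaz10phyb plants had 130.3 and 105 in MeJA arrays, against 172 and 153 in Control arrays. All MeJA arrays of these 3 genotypes were below all Control arrays of the same genotype. The phyb arrays overlapped, with 119.9, 141 and 168 after MeJA, against 177, 121 and 166 in Control. Again phyb MeJA 3, at 168, read like a Control array, and phyb Control 2, at 121, like a MeJA array.

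The MeJA change of IQD21 did not pass in any single genotype with all 18 arrays. It was -0.60 ± 0.19 in Col (0.658-fold; adjusted p = 0.0516), -0.47 ± 0.19 in jaz10phyb (adjusted p = 0.171), -0.31 ± 0.19 in jaz10 (adjusted p = 0.317) and -0.10 ± 0.16 in phyb (adjusted p = 0.965). In the fit to 16 arrays IQD21 fell in Col (adjusted p = 0.00562) and in jaz10phyb (adjusted p = 0.0339), by the same amounts. In that fit jaz10 had an adjusted p of 0.136, and phyb a change of -0.39 ± 0.14 (adjusted p = 0.0735).

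IQD23 rose with MeJA in Col. There it had 86.8 and 76.95 in MeJA arrays, against 59.4 and 45.1 in Control arrays, a change of 0.65 ± 0.19 (1.57-fold; adjusted p = 0.0409, and 0.0138 without the 2 arrays). This call was lost when any 1 array of Col, jaz10 or jaz10phyb was left out (adjusted p = 0.0506 to 0.22). The jaz10 arrays had 67.98 and 74.5 after MeJA, against 59.9 and 62.8 in Control. In jaz10phyb the order was mixed, with 66.7 and 64.4 in MeJA arrays, against 75.6 and 62.6 in Control arrays. The phyb arrays overlapped too, at 78.4, 60.9 and 60.2 after MeJA, against 69.5, 72.2 and 49.3 in Control. Outside Col the changes were 0.21 ± 0.19 in jaz10, -0.07 ± 0.19 in jaz10phyb and 0.07 ± 0.16 in phyb, with adjusted p of 0.496, 0.861 and 0.977. Without the 2 arrays the phyb change was 0.23 ± 0.18 (adjusted p = 0.397).

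IQD30 and IQD24 had mostly lower values after MeJA. For IQD30, Col plants had 58.7 and 51.7 in MeJA arrays, against 81.1 and 61.1 in Control arrays. In jaz10 they were 50.1 and 65.3 after MeJA, against 68.3 and 65.95 in Control, and in jaz10phyb 56.9 and 53.6 after MeJA, against 64.4 and 63.45 in Control. The treatments did not overlap in these 3 genotypes, though in jaz10 the nearest arrays were 65.3 and 65.95. In phyb, IQD30 had 59.6, 52.7 and 65.1 after MeJA, against 75.4, 53.7 and 71.7 in Control. Its changes were -0.35 ± 0.18 in Col, -0.23 ± 0.18 in jaz10, -0.21 ± 0.18 in jaz10phyb and -0.17 ± 0.15 in phyb, none past the threshold (adjusted p = 0.187 to 0.962). Without the 2 arrays IQD30 had a larger phyb change of -0.39 ± 0.15 (unadjusted p = 0.0207, adjusted p = 0.0909), and its change in Col had an adjusted p of 0.0906, still short of the threshold. IQD24 had 59.4 in both MeJA arrays of Col, inside the Control values of 54.6 and 63.5. It had its lowest values in jaz10phyb, at 36.3 and 48 after MeJA, against 64.6 and 51.1 in Control (-0.45 ± 0.18, adjusted p = 0.153). Both of these MeJA values lie below the signal minimum of 50, and whether they exceeded background was not tested. In jaz10 IQD24 read 50.9 and 55.8 after MeJA, against 59.55 and 64.7 in Control, and in phyb 45.9, 54.02 and 64.1 after MeJA, against 66.3, 53.6 and 55.75 in Control. The phyb change of IQD24 was -0.10 ± 0.14 (adjusted p = 0.962) with all arrays and -0.28 ± 0.16 (adjusted p = 0.24) without the 2 arrays, and its jaz10phyb change then had an adjusted p of 0.0609.

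No change of IQD31, IQD29 or IQD32 passed in any genotype, with 18 or 16 arrays. IQD31 averaged 447 ± 24.5 in jaz10 MeJA and 386 ± 21.4 in jaz10 Control plants (SD, n = 2 each), a change of 0.21 ± 0.09 (adjusted p = 0.135). Its MeJA and Control means were 447 ± 3.74 and 431 ± 5.70 in jaz10phyb, 461 ± 17.3 and 423 ± 15.3 in phyb (n = 3 each), and 403 ± 15.7 and 417 ± 16.7 in Col. Of the 8 genes, IQD31 alone had all 3 phyb MeJA arrays (469.7, 472 and 441) above all 3 phyb Control arrays (406, 433 and 432), with a change of 0.12 ± 0.07 (adjusted p = 0.962, and 0.17 ± 0.09 with 0.242 without the 2 arrays).

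IQD29 averaged 71.2 ± 1.81 in jaz10phyb MeJA and 89.65 ± 3.10 in jaz10phyb Control plants (-0.33 ± 0.13, adjusted p = 0.15). Elsewhere its MeJA and Control means were 81.1 ± 4.25 and 88.3 ± 3.14 in Col, 81.75 ± 0.665 and 81.4 ± 15.6 in jaz10, and 84.1 ± 7.88 and 84.3 ± 4.76 in phyb. IQD32 averaged 73.4 ± 2.14 in jaz10 MeJA and 92.25 ± 14.9 in jaz10 Control plants (-0.32 ± 0.18, adjusted p = 0.261). Its means were 88.1 ± 20.7 and 86.9 ± 5.84 in Col, 78.5 ± 13.7 and 80.8 ± 7.80 in jaz10phyb, and 86.03 ± 12.8 and 88.6 ± 2.72 in phyb. Without the 2 arrays the phyb changes were -0.04 ± 0.13 for IQD29 and -0.19 ± 0.17 for IQD32 (adjusted p = 0.86 and 0.484), against -0.01 ± 0.10 and -0.05 ± 0.15 with all arrays. MeJA and Control arrays did not overlap for IQD29 in jaz10phyb and in Col and for IQD32 in jaz10, and overlapped in the other genotypes when all arrays were counted.

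**Figure D2:**
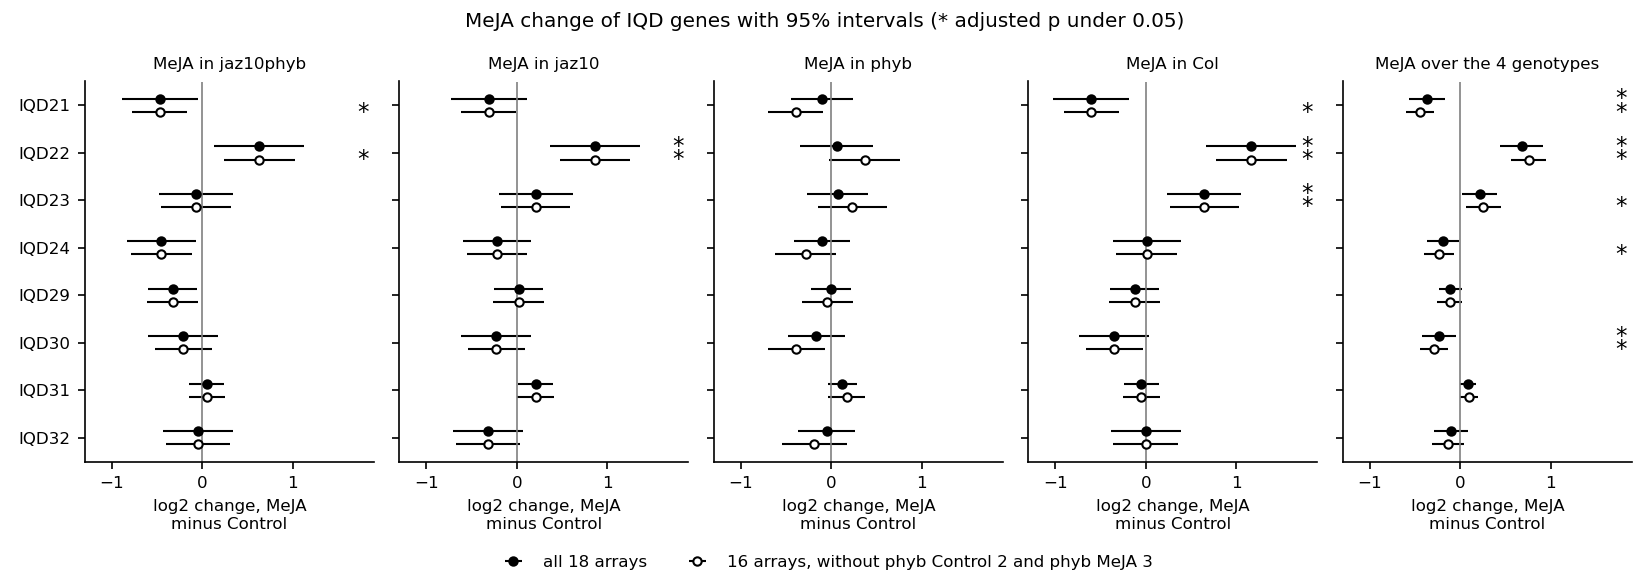
MeJA change (MeJA minus Control, log2 axis) of each IQD gene in each genotype and averaged over the 4 genotypes, with 95% intervals; filled points are fits to all 18 arrays, open points to 16 arrays, and an asterisk marks adjusted p under 0.05. IQD22 is the only gene with asterisks in both jaz10 and Col with all arrays, at 0.87 and 1.17.

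Counts over the family were read against all genes. With all arrays, 2 of 8 members rose and 0 fell with MeJA in Col, where 14.7% of all genes were called in either direction. In jaz10, 1 of 8 rose, against 8.74% of all genes. In jaz10phyb 0 of 8 were called, against 0.0352% of all genes, and 4 of 8 had an unadjusted p under 0.05, against 1319 of 5689 genes. In phyb 0 of 8 were called, against 0%, and 0 had an unadjusted p under 0.05, against 198 of 5689 genes. Over 16 arrays the counts were 2 higher and 1 lower in Col (31.1% of all genes called) and 1 higher in jaz10 (24.6%). They were 1 higher and 1 lower in jaz10phyb (18.6%) and 0 in phyb (16.3%). In phyb 2 members then had an unadjusted p under 0.05, against 1762 of 5689 genes. The median change of the 8 members was -0.02 in Col, -0.10 in jaz10, -0.14 in jaz10phyb and -0.03 in phyb, against medians of -0.02, -0.05, -0.08 and -0.03 over all genes. The IQD genes therefore had no common direction.

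Counts of genes whose arrays do not overlap say little with 2 arrays against 2. In Col, 2 members had both MeJA arrays above the Control arrays (IQD22, IQD23) and 3 below (IQD21, IQD29, IQD30), where 65.5% of all genes did not overlap. In jaz10, 3 were above (IQD22, IQD23, IQD31) and 4 below (IQD21, IQD24, IQD30, IQD32), where the share was 62.5%. In jaz10phyb, 2 were above (IQD22, IQD31) and 4 below (IQD21, IQD24, IQD29, IQD30), with a share of 58.3%. The phyb arrays separated for IQD31 alone, with a share of 6.33%, and without the 2 arrays for 2 above (IQD22, IQD31) and 4 below (IQD21, IQD24, IQD30, IQD32), with a share of 59.5%. IQD21, IQD22 and IQD30 were on the same side in each of these genotypes once the 2 phyb arrays were left out.

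Averaging the MeJA change over the 4 genotypes, a comparison chosen after the data were seen, used all arrays at once. IQD22 rose by 0.68 ± 0.11 (1.60-fold; 95% interval 0.44 to 0.92; adjusted p = 0.00111). IQD21 fell by 0.37 ± 0.09 (0.773-fold; 95% interval -0.57 to -0.17; adjusted p = 0.00703), and IQD30 fell by 0.24 (95% interval -0.42 to -0.05; adjusted p = 0.0428). The call of IQD30 held in 5 of 18 fits that each left out 1 array (those without Col Control 2, Col MeJA 1, phyb Control 2, phyb MeJA 3 or jaz10 MeJA 2) and was lost in 13 (adjusted p = 0.0587 to 0.112), as well as after centring or quantile normalization of the arrays (0.0652 and 0.06) and with no filter on low signal (0.0898). These were 3 of 8 members, where 39.1% of all genes were called. IQD23, at 0.22 (adjusted p = 0.0758), and IQD24, at -0.19 (adjusted p = 0.0871), did not pass. Over 16 arrays 5 of 8 members passed, where 50.7% of all genes did. IQD22 then had 0.76 ± 0.09 (adjusted p = 1.23e-05), IQD21 -0.44 ± 0.07 (adjusted p = 0.000146), IQD30 -0.29, IQD23 0.26 and IQD24 -0.24 (adjusted p = 0.00461, 0.0274 and 0.0221). IQD29, IQD31 and IQD32 passed in neither fit.

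Across genotypes, IQD21 and IQD22 split the treatments completely once the 2 arrays were set aside. IQD22 lay between 66.3 and 118 in the 8 MeJA arrays (median 92.1), against 40.5 to 60.75 in the 8 Control arrays (median 50.5). IQD21 lay between 105 and 149 in the MeJA arrays (median 132), against 153 to 213 in the Control arrays (median 174). The 6 other members overlapped between treatments over these arrays, where 16.2% of all genes did not overlap. With all 18 arrays none of the 8 members separated, against 0.105% of all genes. The doubtful arrays were found on genes outside the family, but treatment moves both, so this separation is a description of the arrays that were kept.

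**Figure D3:**
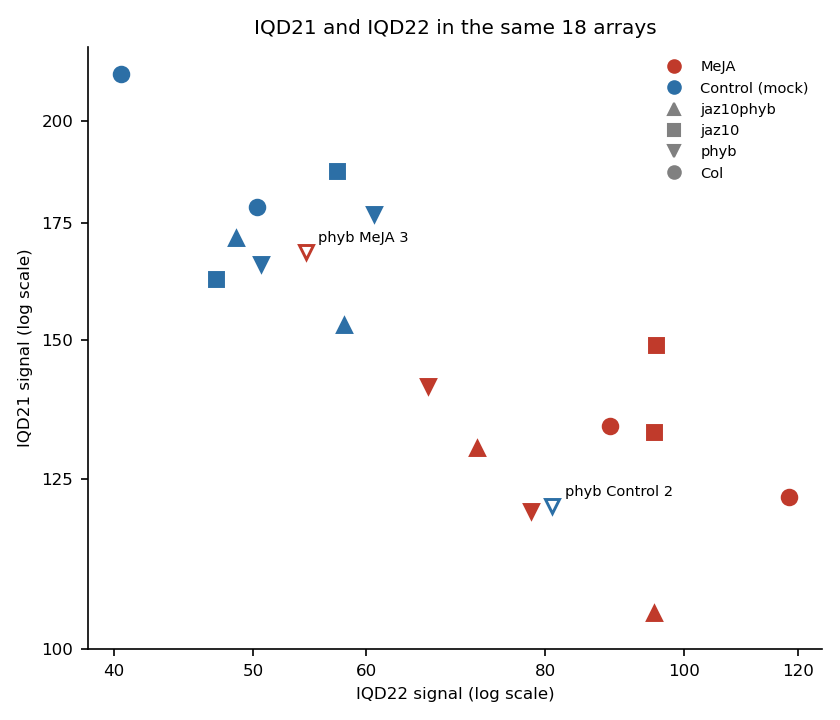
IQD21 signal against IQD22 signal in each of the 18 arrays (both axes log scale), coloured by treatment and shaped by genotype, with phyb MeJA 3 and phyb Control 2 as open symbols. The filled MeJA arrays lie at high IQD22 (66.3 or more) and low IQD21 (149 or less), and the open symbols, at 54.4 and 168 and at 80.9 and 121, lie among arrays of the other treatment.

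The 8 group means of IQD22 ran, from high to low, from Col MeJA (103.5 ± 20.9, SD) through jaz10 MeJA (95.5 ± 0.212), jaz10phyb MeJA (83.5 ± 16.7), phyb MeJA (66.3 ± 11.9), phyb Control (64.1 ± 15.4), jaz10phyb Control (53.3 ± 6.53) and jaz10 Control (52.2 ± 7.16) to Col Control (45.4 ± 6.97). Col held both ends of the order, and the phyb groups the middle. With all 18 arrays, every pair of neighbours in that order overlapped or met, so no step between neighbours exceeded their spread. Without phyb MeJA 3 and phyb Control 2, the phyb MeJA arrays (78.1 and 66.3) stood above the phyb Control arrays (60.75 and 50.7). IQD21 ran from Col Control (196 ± 24.2) through jaz10 Control (175 ± 17.4), jaz10phyb Control (162 ± 13.1), phyb Control (154 ± 29.8), phyb MeJA (143 ± 24.3), jaz10 MeJA (141 ± 11.4) and Col MeJA (128 ± 8.53) to jaz10phyb MeJA (118 ± 18.02). Its neighbours again all overlapped with all 18 arrays. Without the 2 arrays, no IQD21 MeJA array overlapped the Control arrays, as given above. For IQD23 the ends were Col MeJA (81.9 ± 6.99) and Col Control (52.2 ± 10.13). Both were apart from their neighbours jaz10 MeJA and jaz10 Control, though Col Control reached 59.4 and jaz10 Control began at 59.9. The phyb arrays overlapped both ends, with phyb MeJA 1 at 78.4 against 76.95 in Col MeJA 2, and phyb Control 3 at 49.3 against 59.4 in Col Control 1.

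Whether the response to MeJA differed between genotypes was tested as a difference of changes. For IQD22 the response in phyb minus that in Col was -1.11 ± 0.30 (95% interval -1.75 to -0.46; unadjusted p = 0.00253), which did not pass over all genes (adjusted p = 0.254). Without the 2 arrays it was -0.80 ± 0.26 (unadjusted p = 0.00832, adjusted p = 0.343). IQD23 had -0.58 ± 0.25 (adjusted p = 0.296), and without the 2 arrays -0.41 ± 0.25 (adjusted p = 0.673). IQD21 had 0.50 ± 0.25 (adjusted p = 0.339), and 0.21 ± 0.20 without the 2 arrays. None of the 8 members was called in either fit, where 0.0176% and 0.0703% of all genes were (all and 16 arrays). With all arrays 2 members had an unadjusted p under 0.05, against 901 of 5689 genes. Over 16 arrays 1 member had, against 513 of 5689 genes.

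No member was called for a difference in response between jaz10 and Col or between jaz10phyb and jaz10 either. Between jaz10 and Col the response of IQD22 differed by -0.30 (95% interval -1.01 to 0.40), that of IQD21 by 0.30 (-0.30 to 0.89) and that of IQD31 by 0.26 (-0.01 to 0.53). Between jaz10phyb and jaz10 the response of IQD22 differed by -0.23 (-0.94 to 0.47) and that of IQD29 by -0.35 (-0.73 to 0.04). In both comparisons 0 of 8 members were called and 0 had an unadjusted p under 0.05, in fits where 0% of all genes were called with either set of arrays. For IQD22 the interval between jaz10 and Col reaches nearly the size of its change in Col.

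**Figure D4:**
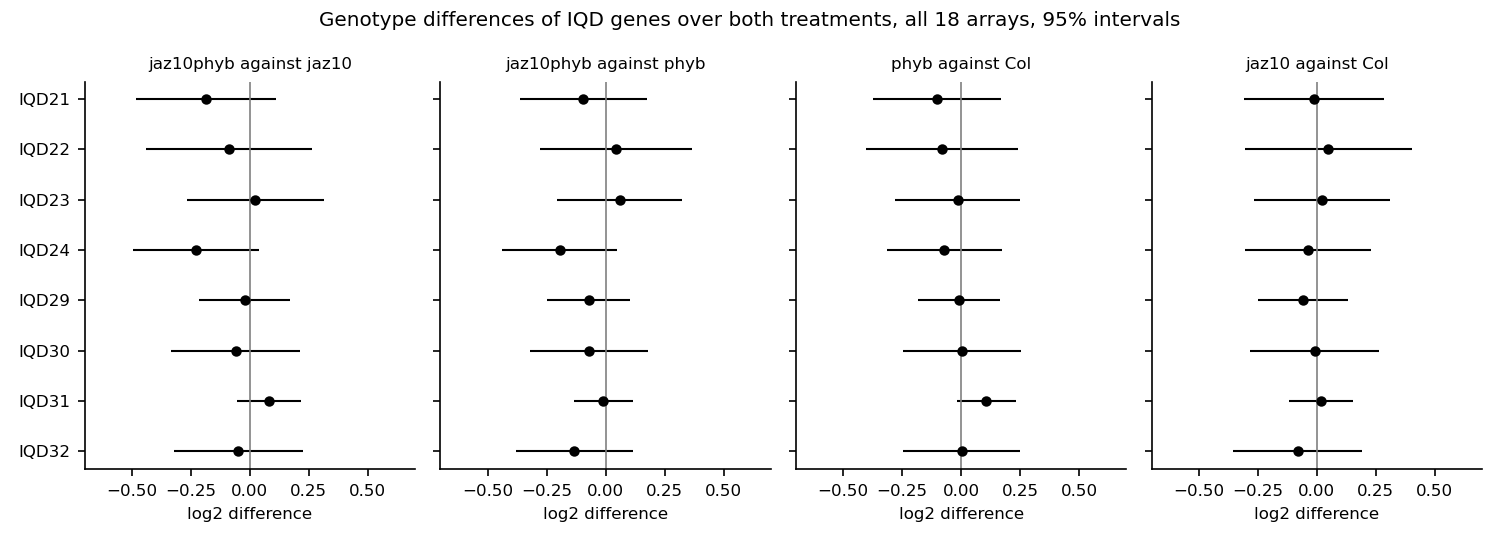
Difference between genotypes (first minus second named, averaged over both treatments, log2 axis) of each IQD gene from the fit to all 18 arrays, with 95% intervals. Every interval includes 0, and the points lie between -0.23 and 0.11.

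Averaged over both treatments, every interval for a genotype difference in IQD transcript level included 0 with all arrays. The phyb plants, set against Col over both treatments, had differences of -0.10 to 0.11 across the 8 genes, the highest for IQD31 (95% interval -0.02 to 0.23; adjusted p = 0.498). For jaz10 against Col the range was -0.08 to 0.05, for jaz10phyb against jaz10 -0.23 to 0.08, and for jaz10phyb against phyb -0.19 to 0.06. IQD24 had the lowest value in both comparisons of the double mutant, at -0.23 (95% interval -0.49 to 0.04) against jaz10 and -0.19 (-0.44 to 0.05) against phyb. No member was called or had an unadjusted p under 0.05 in any of the 4 comparisons with all arrays. The share of all genes called was 1.25% for phyb against Col, 0.0527% for jaz10 against Col, 1.04% for jaz10phyb against jaz10 and 0.193% for jaz10phyb against phyb. In that order, 704, 268, 644 and 395 of 5689 genes had an unadjusted p under 0.05. In the fit to 16 arrays, again with no member called, the shares were 3.96%, 0.0703%, 3.59% and 0.545% in the same order.

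Averaging over treatments hides opposite values in IQD22. Its difference between phyb and Col was -0.64 ± 0.21 in MeJA arrays (adjusted p = 0.187) and 0.47 ± 0.21 in Control arrays (adjusted p = 0.384). Over 16 arrays these were -0.50 ± 0.18 and 0.29 ± 0.18 (adjusted p = 0.183 and 0.577). IQD24 was at -0.50 ± 0.16 in jaz10phyb against Col after MeJA, with an adjusted p of 0.0974 in the fit to 16 arrays, and ± 0.18 with an adjusted p of 0.222 in the fit to all 18. The jaz10phyb MeJA mean of IQD24, 42.2, lies below the signal minimum of 50. No member passed in any comparison of genotypes within a treatment. Few genes of any kind did. With all arrays, the calls among 5689 genes ran from 0 (jaz10 against Col, Control) to 55 (phyb against Col, MeJA). Calls over all genes were not counted for these comparisons in the 16 arrays.

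Genes with a symbol were ranked by the Pearson correlation of their log2 signal with each called member over the 18 arrays. All arrays share the treatment contrast, so high values are common, and no test attaches to them. Of 854 genes with a symbol, those most like IQD22 were UGT76E12, a glycosyltransferase (r = 0.932), GID1B, a gibberellin receptor (0.926), and FLR1, a leucine-rich-repeat protein (0.922). IQD21 was most like scpl26, a serine carboxypeptidase-like protein (0.939), ATSYTF, a synaptotagmin (0.935), and NdhL, a subunit of a chloroplast electron transport complex (0.929). For IQD23 they were EMB2786 (0.858), AAPT2, an enzyme of phospholipid synthesis (0.832), and MT1C, a metallothionein (0.819). For IQD30 they were UGLYAH, an enzyme of purine breakdown (0.819), NANA, a chloroplast protease (0.819), and ATRX, a chromatin remodeller (0.812).

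Partners of IQD proteins were poorly covered. Of 17 calmodulin and calmodulin-like genes in the gene table, 6 had a probe set of their own (CML23, CML37, CML38, CML41, CML42 and CML43) and 0 reached the minimum. CML38 had signals of up to 40.8, and the others of up to 8.58. None of 59 calcium-dependent kinases and calcineurin B-like proteins with their kinases, and none of 40 other calmodulin-binding proteins, had a probe set paired with it alone. Whether calmodulin transcripts moved with the IQD genes could therefore not be tested.

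Of 30 tubulin and microtubule-associated genes, 3 were tested, all beta-tubulins. TUB5 had signals of 31.95 to 50.8 in the 8 MeJA arrays, against 52.7 to 63.2 in the 8 Control arrays, and did not overlap. Over these arrays 16.2% of all genes did not overlap. The MeJA median of TUB5, 46.1, lies below the signal minimum of 50, and whether it exceeded background was not tested. The change of TUB5 in Col was -0.58 ± 0.22 (adjusted p = 0.0847, and 0.0327 without the 2 arrays), and over the 4 genotypes it fell by 0.34 (adjusted p = 0.0206). TUB9 had -0.33 ± 0.11 in jaz10 (adjusted p = 0.073, and 0.0274 without the 2 arrays) and TUB6 -0.07 ± 0.06 over the 4 genotypes (adjusted p = 0.39). With all arrays, 1 of 3 was called over the 4 genotypes, close to the 39.1% of all genes, and 0 of 3 in any single genotype. Over 16 arrays 2 of 3 were called over the 4 genotypes, where 50.7% of all genes were, with TUB9 at -0.13 ± 0.05 (adjusted p = 0.0439).

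Of 29 glucosinolate genes, the pathway IQD1 is known for, 2 were tested. UGT74B1, which adds glucose during synthesis of the glucosinolate core, had 298 to 374 in the 8 MeJA arrays, against 247 to 311 in the 8 Control arrays. It rose over the 4 genotypes by 0.28 ± 0.07 (adjusted p = 0.00945) and had 0.33 ± 0.15 in Col (adjusted p = 0.148, and 0.0308 without the 2 arrays). The other, AT2G31790, had -0.07 ± 0.05 over the 4 genotypes (adjusted p = 0.34). Over the 4 genotypes 1 of 2 was called, where 39.1% of all genes were with all arrays and 50.7% over 16 arrays. UGT74B1 moved in the direction of IQD22, and TUB5 in that of IQD21 and IQD30, as many other genes did. A link between these genes and the IQD genes was not tested.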

How the data were processed

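RNA from 18 samples was hybridised to Affymetrix Arabidopsis Gene ST arrays, 1 colour each. Values are the authors' deposited signal intensity per probe set. Affymetrix Expression Console is named for this step in the submitters' processing notes. Its version, its probe summary and the genome build were not given in the sources used here. Values were linear, where the planned test had also allowed for log2 values, so log2(signal + 1) was tested.

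A platform annotation paired 16722 of 38408 probe sets with 1 gene, 759 with several and 20927 with none listed. A TAIR10.1 gene table supplied current symbols (16574 matched) and nothing else. The minimum was a signal of 50 on at least 1 array, with the brightest probe set per gene, which left 5689 genes.

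limma 3.58.1 in R 4.3.3 was fitted with 8 group means, to all 18 arrays (10 residual degrees of freedom) and to 16 (8). Moderated statistics were adjusted by Benjamini-Hochberg over all genes, and a gene is called at adjusted p under 0.05. For MeJA in Col, simulated data of 5689 genes gave 7 false calls and recovery of 86% of 100 genes changed by 1 (log2) and 97% of 100 changed by 2. Only these genes were changed, and the noise of each gene was drawn independently. Deviations shared by many genes, as in the 2 phyb arrays, were therefore not simulated, and recovery in the real arrays may differ. No change below 1 was simulated, so recovery of most IQD changes given above is not known. The number of arrays limits the precision. Groups came from sample titles. The members, gene lists and doubt about 2 phyb arrays were chosen with earlier results of these data known. All members are named. For members called in a MeJA or genotype comparison the 3 most correlated genes are named, and up to 4 genes per list. Alternatives were other filters, a larger pseudocount, centring, quantile normalization, other eBayes settings, a replicate block, separate probe sets and arrays left out.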

Additional observations from a re-analysis of the deposited data

How the results depend on the processing

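Of 524 recomputed counts of called IQD genes, 51 moved by more than 1.5 times or to or from 0. With no filter on low signal, 1 member was called for MeJA in Col (2 in the fit reported) and 0 in jaz10 (1), and IQD30 lost its call over the 4 genotypes (adjusted p = 0.0898). Calls over all genes, with more genes tested, then fell to 214 from 837 in Col and to 127 from 497 in jaz10. They did not fall over the 4 genotypes. Without phyb Control 2 and phyb MeJA 3, 2 members were called in jaz10phyb (0) and 5 over the 4 genotypes (3). Leaving out each array in turn gave 0 to 3 for MeJA in Col, 0 to 1 in jaz10, 0 to 0 in jaz10phyb and 2 to 4 over the 4 genotypes; within the 16 arrays these ranges were 2 to 3, 1 to 1, 0 to 2 and 3 to 5. IQD22 in Col lost its call in 4 of 18 such fits, IQD23 in Col in 12 and IQD22 in jaz10 in 13; IQD21 in Col gained one in 4 (without phyb Control 1 or 2 or phyb MeJA 1 or 3). Over the 4 genotypes IQD22 stayed between 0.56 and 0.81 (adjusted p at most 0.00407) and IQD21 between -0.48 and -0.33 (adjusted p at most 0.0221), called under all settings run. No member was called in any genotype or response comparison under any setting, and no called value changed sign. Whether replicate numbers pair the samples could not be decided. Deviations of same-numbered arrays had a median correlation of 0.03 over 57 pairs, with 11 over 0.1. Of 18 arrays, 12 correlated best with their own number. In a group of 2 arrays the deviations mirror each other, so these correlations are not independent. With the replicate block, 3 members were called in Col, 1 in jaz10, 0 in jaz10phyb, 0 in phyb and 4 over the 4 genotypes, and all genes called went to 1243 from 837 in Col, 923 from 497 in jaz10 and 392 from 2 in jaz10phyb, but to 46 from 71 for phyb against Col and to 0 from 11 for jaz10phyb against phyb. Over all genes, leaving out an array gave 0 to 1417 calls in Col, 0 to 1026 in jaz10 and 0 to 547 in jaz10phyb. The average over the 4 genotypes and the arrays left out of the 16 were chosen after seeing the data.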

Other observations

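Of the 9 IQD genes below the signal minimum, only IQD28 and IQD26 did not overlap between treatments over the 16 arrays. The genes below the minimum were not part of the tests, and signal over background was not tested at these levels. IQD28 and IQD26 were picked after their values were seen. IQD28 had signals of 22.6 to 30.85 in the 8 MeJA arrays without phyb MeJA 3, against 31.7 to 41.85 in the 8 Control arrays without phyb Control 2, with no overlap. Phyb MeJA 3 had 44.1 and phyb Control 2 had 23.8 for this gene. IQD26 had 25.02 to 35.6 in the same MeJA arrays, against 14.7 to 24.5 in the same Control arrays, also with no overlap, and here phyb MeJA 3 had 23.7 and phyb Control 2 had 24.8. IQD19 had 13.7 to 27.7 in MeJA arrays and 6.91 to 30.85 in Control arrays, and IQD20 had 11.2 to 17.7 in MeJA arrays and 12.7 to 17.7 in Control arrays, both overlapping. IQD15, IQD16, IQD18, IQD25 and IQD27 overlapped as well. Of the 5689 genes past the minimum, 16.2% did not overlap over the same 16 arrays. No such share was taken over genes below the minimum, so how common a separation is at these signals is not known.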
